A study of Mus musculus with 6 samples.

Results

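The forkhead transcription factor genes were described across the 3 cell populations of an in vitro endoderm differentiation of mouse ESCs. Members were all genes whose symbol is Fox followed by a class letter from a to s and a number, and 44 of the 24054 genes in the deposited gene tables met this rule. RNA-seq was performed on d0, d3F and d5FS cells with 2 replicates each, 6 samples in all. All cells came from 1 double knock-in (DKI) ESC line, heterozygous for a Foxa2-Venus gene fusion and homozygous for Sox17-Cherry, so the reference population carried both reporters too. The d0 cells were undifferentiated ESCs sorted as Foxa2-Venus-neg/Sox17-Cherry-neg. The d3F cells were taken after 3 days in endoderm differentiation medium with 1 ng/ml murine Wnt3a and 10 ng/ml Activin A and sorted as Foxa2-Venus-pos/Sox17-Cherry-neg, and the labels call them mesendoderm. The d5FS cells were taken after 5 days in the same medium, sorted as Foxa2-Venus-pos/Sox17-Cherry-pos, and are labelled endoderm. Foxa2 itself was therefore a sorting marker. Its difference from d0 describes the sort and is not a finding, and how reads of the fusion allele were assigned is not given in the sources used here. With 1 cell line, p-values measure the spread between these samples only, and in RNA from many cells a smaller number of cells of one kind and less RNA per cell cannot be told apart.

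Forkhead proteins bind DNA through a winged helix domain, and different classes act in development, the cell cycle and metabolism. Foxa1, Foxa2 and Foxa3 are pioneer factors, which bind sites in closed chromatin and are known for their role in gut, liver and pancreas development. Foxh1 brings Smad2 and Smad3 to genes that respond to Nodal and Activin, Foxj1 drives the formation of motile cilia, Foxm1 activates mitotic genes, and the Foxo factors are held out of the nucleus by insulin signalling.

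Promoter windows, from 250 bases before to 50 bases after a start site, were taken from RefSeq on GRCm38.p6 for 28 of the 44 members, and Foxq1, Foxj1 and Foxh1 were among those without one. The 3 Foxa genes are shown because all 3 were higher in d5FS than in d0, and Foxd3 is shown as the member with the largest fall between these populations. Sequences run 5′ to 3′ along the strand of the gene. Capitals mark the forkhead core TGTTTAC or its complement in Foxa1 (chr12:57546062-57546361, minus strand), AGATAA and the complement of TATAAA in the first of the Foxa2 windows (chr2:148045415-148045714, minus strand), and TATAAA in Foxa3 (chr7:19023490-19023789, minus strand). The window at the most upstream Foxa2 start (chr2:148046920-148047219, minus strand) and that of Foxd3 (chr4:99656049-99656348, plus strand) held none of the motifs searched.

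Foxa1: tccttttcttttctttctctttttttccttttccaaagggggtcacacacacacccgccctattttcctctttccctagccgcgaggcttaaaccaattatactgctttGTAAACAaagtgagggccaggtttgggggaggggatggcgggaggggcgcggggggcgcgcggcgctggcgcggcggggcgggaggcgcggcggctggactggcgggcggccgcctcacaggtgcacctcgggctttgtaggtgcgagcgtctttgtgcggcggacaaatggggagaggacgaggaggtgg
Foxa2, downstream start: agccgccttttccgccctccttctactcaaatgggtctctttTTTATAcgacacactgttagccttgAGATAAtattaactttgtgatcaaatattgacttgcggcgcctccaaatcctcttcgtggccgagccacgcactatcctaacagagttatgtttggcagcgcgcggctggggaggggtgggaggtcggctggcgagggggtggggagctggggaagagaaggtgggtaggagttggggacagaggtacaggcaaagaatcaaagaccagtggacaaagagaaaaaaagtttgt
Foxa2, most upstream start: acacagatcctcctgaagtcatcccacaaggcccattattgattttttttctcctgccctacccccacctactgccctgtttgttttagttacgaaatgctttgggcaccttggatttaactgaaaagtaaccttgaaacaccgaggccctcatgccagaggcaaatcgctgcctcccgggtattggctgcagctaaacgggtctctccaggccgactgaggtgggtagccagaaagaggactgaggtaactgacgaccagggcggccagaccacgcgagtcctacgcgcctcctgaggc
Foxa3: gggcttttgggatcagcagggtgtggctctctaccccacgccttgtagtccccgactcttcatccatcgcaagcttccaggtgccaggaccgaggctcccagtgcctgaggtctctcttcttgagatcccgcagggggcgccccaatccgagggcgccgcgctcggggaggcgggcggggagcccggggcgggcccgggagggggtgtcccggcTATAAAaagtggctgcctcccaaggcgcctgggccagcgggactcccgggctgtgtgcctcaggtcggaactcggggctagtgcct
Foxd3: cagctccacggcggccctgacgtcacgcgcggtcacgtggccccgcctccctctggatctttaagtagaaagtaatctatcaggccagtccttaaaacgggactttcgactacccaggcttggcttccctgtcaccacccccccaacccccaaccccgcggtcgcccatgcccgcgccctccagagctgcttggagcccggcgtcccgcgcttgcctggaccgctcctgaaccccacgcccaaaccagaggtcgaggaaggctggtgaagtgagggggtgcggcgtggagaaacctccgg

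The forkhead core in the Foxa1 window began 141 bases before the start site. This motif was searched on both strands and was present in 1 of 33 forkhead windows (3.03%) and in 3.65% of 32851 windows of all genes. In Foxa3 a TATAAA motif began 36 bases before the start site, and 9.09% of the forkhead windows held this motif, beside 13.6% of all windows. AGATAA, the core bound by Gata factors, was found in 6.06% and 11.2%, and AATNCACA, a Foxh1-type motif, in 0 forkhead windows and 3.6% of all. Forkhead windows were richer in CpG dinucleotides, with a median of 22 per window and a GC content of 62.7%, beside medians of 7 and 52.7% over all windows. At least 10 CpG were present in 25 of 33 windows (75.8%) and in 43.5% of all windows. These matches describe the letters of the windows only.

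The d0 and d5FS populations differed in the markers of their labels. All 7 pluripotency markers tested (Pou5f1, Nanog, Sox2, Zfp42, Klf4, Esrrb and Dppa5a) fell from d0 to d5FS and all 7 definitive endoderm markers rose, Gata4 from 1.49 and 2.52 to 167 and 333 CPM (the expected count scaled to the total of the sample). Sox17 was 1 of the endoderm markers and was itself used for the sort, so its rise describes the sort. In the test given below, 10.4% of all genes were called lower and 12.4% higher between these populations. From d0 to d3F, 5 of 7 pluripotency markers were called lower (1.9% of all genes), and Pou5f1 and Nanog were not called. At this step 6 of 7 endoderm markers were called higher (2.8%). Some markers of extraembryonic endoderm and fibroblasts also rose from d0 to d5FS, as given below. Expected counts summed to between 16457728.93 and 22768686.01 per sample, so that a gene with 0 counts may still lie at up to 0.1318 to 0.1823 CPM (3 counts, counting error only). Replicates differed by far more than sampling noise, with 84.09 to 185 chi-square per degree of freedom. Replicate 1 gave the higher value in all 3 populations for 10 of the 29 forkhead genes tested (34.5%) and for 33.1% of all tested genes. The supplementary sample list names one library of each population mRNA and the other total RNA and does not say which is which.

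No member was at 0 counts in all 6 samples. Under 10 counts in every sample were found for 11 members, among them factors of ovary (Foxl2), thymus (Foxn1) and lens (Foxe3), and Foxb2, Foxd2, Foxd4, Foxi1, Foxi2, Foxl1 and Foxs1. The filter on low counts also removed Foxc2, Foxe1, Foxf1 and Foxr1, so that 29 members were tested and 15 were not. Of the 29, Foxb1, Foxd1 and Foxn4 reached the limit of the filter (0.468 CPM) in 1 population only. The filter asks for this limit in at least 2 samples. Foxf2 reached it in both d3F replicates and otherwise only in d5FS replicate 2 (0.627 CPM). At least 1 TPM (the share of transcripts, a value per length) in both replicates was reached by 10 members in d0, 14 in d3F and 14 in d5FS. Of these, 9 passed in all 3 populations: Foxh1, Foxj3, Foxk2, Foxm1, Foxn2, Foxn3, Foxo3, Foxo4 and Foxp4. Foxd3 passed in d0 only, and Foxa2, Foxa3, Foxj1, Foxk1 and Foxq1 passed in both differentiated populations and not in d0. This split depends on the unit. At 1 CPM per kilobase Foxa3, Foxj1 and Foxk1 also passed in d0, Foxd3 also passed in d3F, and the counts were 17, 18 and 18 members.

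**Figure D1:**
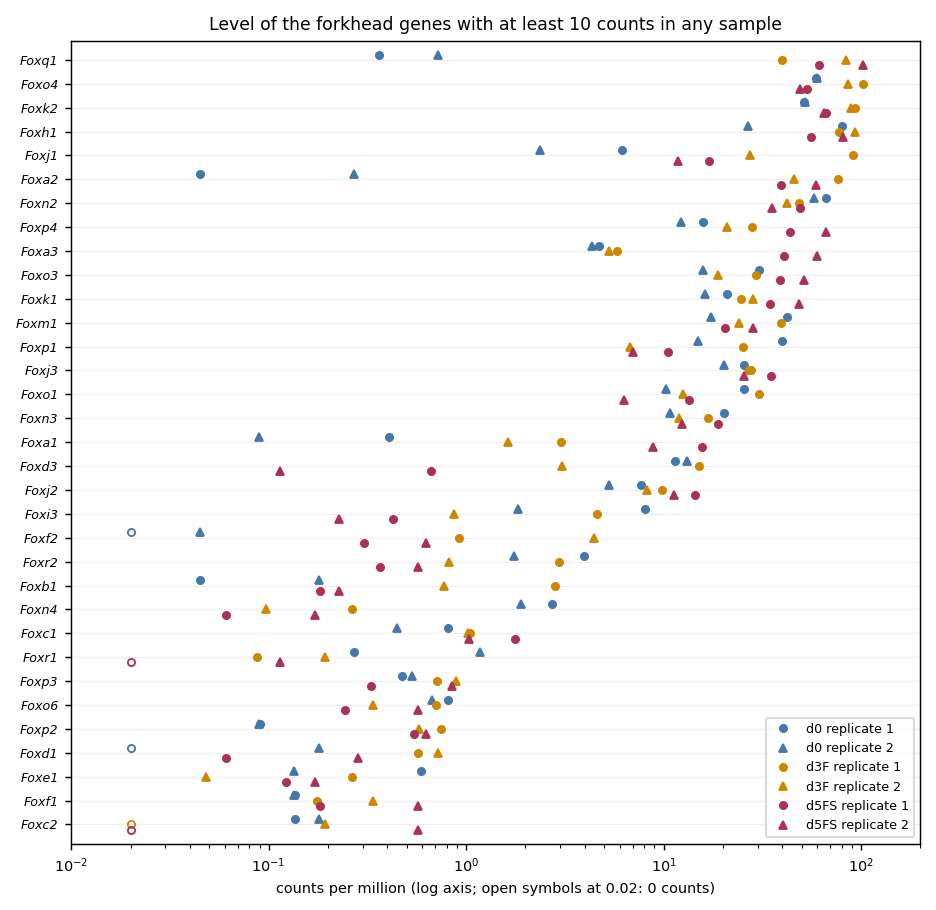
CPM of the forkhead genes with at least 10 counts in any sample, in each of the 6 samples, on a log axis, with circles for replicate 1, triangles for replicate 2 and open symbols for 0 counts. The values are not divided by length, so they compare samples for 1 gene and not genes with each other. Foxa2 and Foxq1 stand under 1 CPM in both d0 samples and at 39.3 CPM or above in the other 4.

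Per length, Foxh1 ranked first of the 44 members in all 6 samples, with 44.12 and 8.06 TPM in d0, 41.60 and 33.65 in d3F, then 20.58 and 20.66 in d5FS. Foxo4 and Foxn2 followed it, in this order, in both d0 samples. In d5FS the next ranks were held, in this order, by Foxq1 (10.08 and 11.81 TPM), Foxa3 (9.47 and 9.73) and Foxa2 (8.98 and 9.36) in both replicates. In d0 the ranges of each pair of neighbours among the first 8 places overlapped. In d3F Foxh1 lay above Foxa2 in both samples without overlap, whereas Foxa2, Foxo4, Foxj1, Foxq1 and Foxk2 overlapped each with the next. TPM levels cannot be compared safely between samples here, since RNAs with an effective length under 200 bases held 56.0% to 78.0% of all TPM and this share differed between replicates, but shares within the family do not depend on it.

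The Foxa genes together made up 1.43% and 2.28% of the summed forkhead TPM in d0, 15.0% and 11.0% in d3F, with 21.0% and 23.3% in d5FS. Foxq1 took 0.0738% and 0.256% in d0, 5.07% and 12.7% in d3F, then 10.2% and 13.8% in d5FS. Both shares were higher in each d3F and d5FS sample than in each d0 sample. Foxh1 took 36.2% and 20.7%, 22.2% and 31.7%, and 20.9% and 24.1% in the same order, and its range in d0 held both d5FS values. Foxo factors held 19.1% and 25.6% in d0, 17.0% and 15.2% in d3F, with 15.2% and 12.9% in d5FS. Foxn and Foxm factors held 17.3% and 19.1% in d0 and between 6.73% and 9.96% in the other 4 samples. The Foxj share was 15.4% in d3F replicate 1 and between 4.5% and 7.8% in the other 5 samples.

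**Figure D2:**
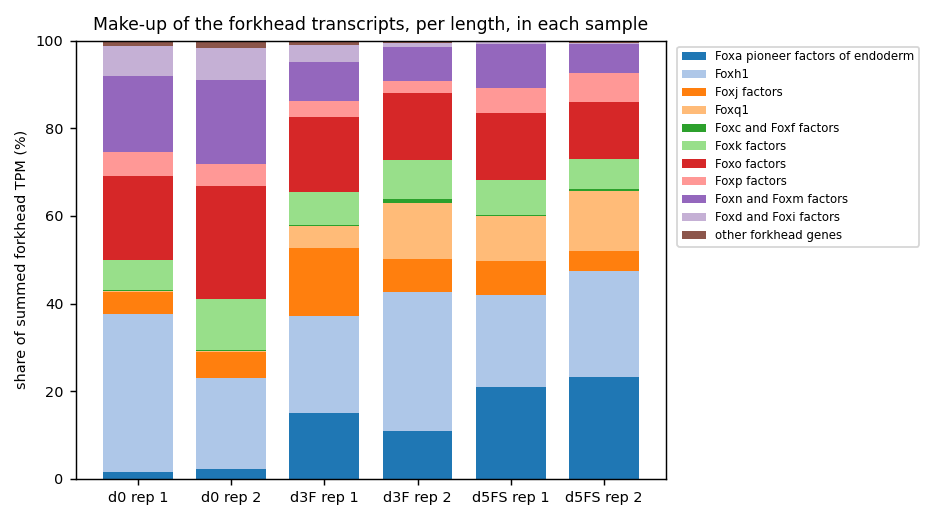
Share of the summed forkhead TPM held by each of 11 groups of forkhead genes, 1 stacked bar per sample. The Foxa share stands at 1.43% and 2.28% in d0 and at 21.0% and 23.3% in d5FS, and Foxh1 holds between 20.7% and 36.2% in every sample. The Foxa share includes the sorting marker Foxa2.

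Differences were tested with edgeR's quasi-likelihood test in one fit of all genes, and a call needed both an adjusted p (Benjamini-Hochberg) under 0.05 and a log2 fold change beyond 1 in either direction. From d0 to d3F, 6 of 29 forkhead genes were called (20.7%), beside 4.7% of all 14539 tested genes. Foxa1, Foxa2, Foxf2, Foxj1 and Foxq1 were higher, beside 2.8% of all genes, and Foxn4 was lower, beside 1.9%. Of these calls, that of Foxa2 describes the sort. Foxn4 passed the filter through d0 alone, and Foxf2 reached its limit in both replicates only in d3F. A difference was thus built into their being tested. The calls of Foxa2, Foxn4 and Foxf2 do not add to the count as a result, nor do those of Foxa2 and Foxn4 from d0 to d5FS. Between d3F and d5FS 1 member was called, Foxa3, which was higher, beside 1.54% of all genes called, 1.08% of them higher and 0.461% lower. No member was called lower by edgeR in this fit, while at an unadjusted p under 0.05 there were 7 lower and 4 higher members. The share of all genes at this unadjusted limit is not given, so counts at this limit, here and below, are not read as a result. A further edgeR fit also held the replicate number (the replicate block), and what this number marks is not known. It called Foxa1 and Foxa3 higher and Foxd3, Foxi3, Foxj1 and Foxo1 lower, beside 6.31% of all genes in either direction. DESeq2 with the same cut-offs called 3 lower and 3 higher, beside 7.59% of all genes in either direction. Its test against a log2 fold change of 1 called 1 each, beside 1.26%.

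From d0 to d5FS, 10 of 29 members were called (34.5%), beside 22.8% of all genes. Foxa1, Foxa2, Foxa3, Foxp2, Foxp4 and Foxq1 were higher, beside 12.4%, and Foxd3, Foxi3, Foxn4 and Foxr2 were lower, beside 10.4%. The median log2 fold change of the tested members was 0.44 over the first 3 days, -0.34 between d3F and d5FS, and 0.30 over the whole course, against -0.01, 0.01 and 0.02 for all genes. The 3 comparisons share samples, so they are not independent of each other. In all, 12 members were called in at least 1 comparison and 17 tested members in none.

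**Figure D3:**
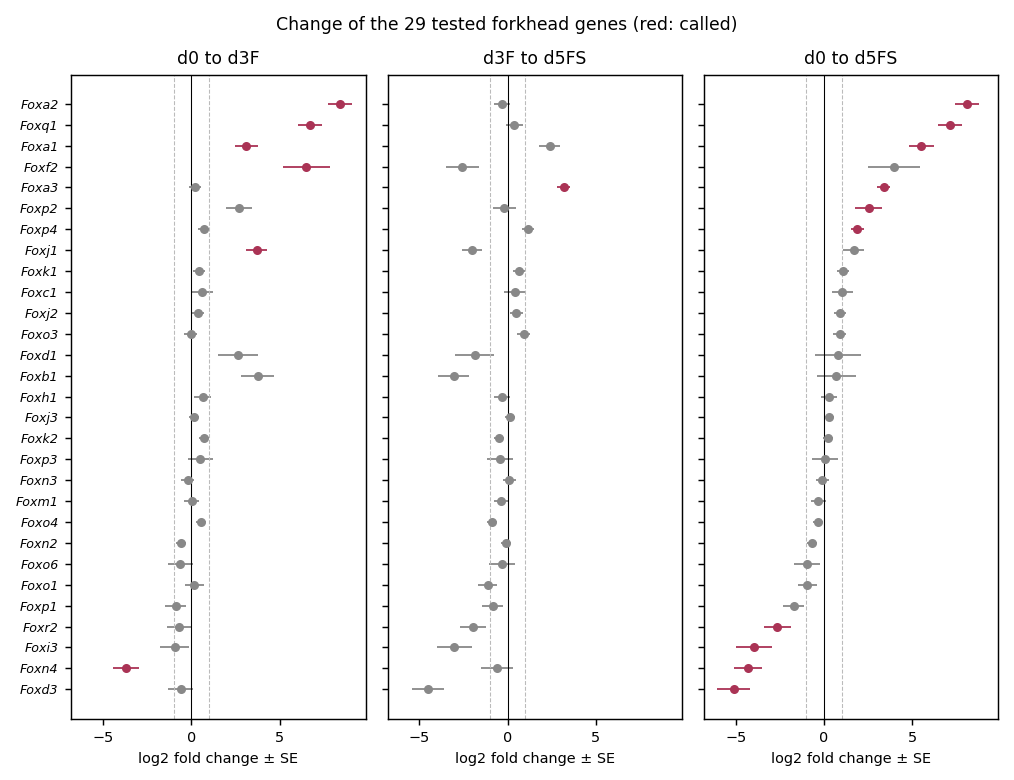
Log2 fold changes with standard errors of the 29 tested forkhead genes in the 3 comparisons, ordered by the change from d0 to d5FS, on a common axis. Red points were called by edgeR, 6, 1 and 10 of them from left to right, and dashed lines mark a log2 fold change of 1 in each direction.

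Among the Foxa genes the changes came at different steps. Foxa2 (chr2:148042877-148046969) had 0.0452 and 0.27 CPM in d0, 76.9 and 45.8 in d3F, then 39.3 and 59.0 in d5FS. Both later populations lay above d0 and overlapped each other. The d0 values rest on 7 counts in all, and the ratio of CPM to d3F was 394 with a 95% counting interval from 191 to 980. Between d3F and d5FS, where both populations were sorted as Foxa2-Venus-pos, the log2 difference was -0.31 ± 0.45 (SE, n = 2 each, edgeR adjusted p = 0.765).

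Foxa3 (chr7:19013284-19023538), which in the embryo marks the gut endoderm, had 4.71 and 4.36 CPM in d0, 5.80 and 5.32 in d3F, with 40.6 and 60.2 in d5FS. It was thus present at a low level before differentiation, and both d5FS samples lay far above all others. From d0 to d3F the log2 difference was 0.20 ± 0.35 (edgeR adjusted p = 0.816). Its log2 rise was 3.17 ± 0.37 between d3F and d5FS (edgeR adjusted p = 0.013) and 3.37 ± 0.37 over the whole course (edgeR adjusted p = 0.00195). The call from d3F to d5FS was lost without d3F replicate 1 (edgeR adjusted p = 0.114, when no gene at all was called), without d3F replicate 2 (0.0556) or without d5FS replicate 2 (0.0684), with log2 changes between 2.79 and 3.19, and the call from d0 to d5FS was kept in all 6 such fits.

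Foxa1 (chr12:57540628-57546916), which acts beside Foxa2 in lung, liver and pancreas, had 0.407 and 0.0899 CPM in d0, 3.03 and 1.64 in d3F, then 15.6 and 8.89 in d5FS. Each population lay above the one before it without overlap. The log2 change was 3.12 ± 0.68 from d0 to d3F (edgeR adjusted p = 0.0401) and 5.49 ± 0.70 from d0 to d5FS (edgeR adjusted p = 0.00302). The next step, a log2 difference of 2.37 ± 0.58 between d3F and d5FS, did not pass (edgeR adjusted p = 0.0866) but was called with the replicate block (0.0259). The rise from d0 to d3F was called in only 1 of 6 fits that left out a sample, that without d0 replicate 1, and without d0 replicate 2, d3F replicate 1 or 2, or d5FS replicate 1 or 2 its edgeR adjusted p was 0.123, 0.133, 0.104, 0.0774 and 0.0706.

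Within the Foxa transcripts, per length, Foxa3 made up 93.7% and 93.3% in d0. In d3F Foxa2 made up 90.8% and 87.6%, and in d5FS Foxa2 held 43.4% and 46.8% beside 45.8% and 48.7% for Foxa3. Foxa1 held 10.8% and 4.45% in d5FS and at most 5.17% in the other populations. The leading Foxa gene was the same in both replicates of d0 and of d3F, and Foxa3 was slightly ahead in both of d5FS. Since Foxa2 was a sorting marker, its low share in d0 and high share in d3F describe the sort in part.

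**Figure D4:**
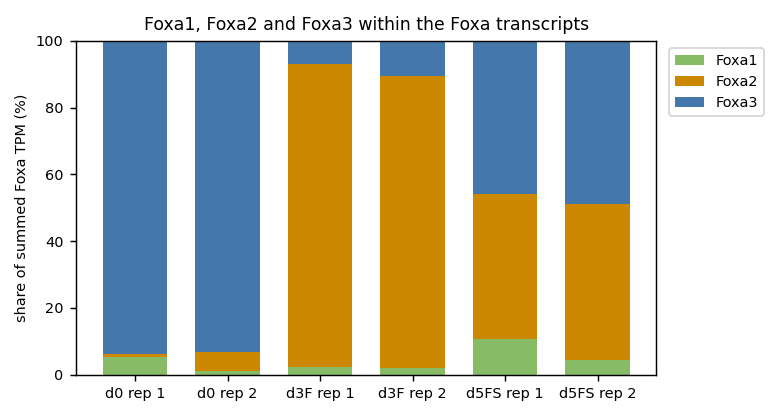
Shares of Foxa1, Foxa2 and Foxa3 in the summed Foxa TPM, 1 stacked bar per sample. Foxa3 fills 93.7% and 93.3% in d0, Foxa2 fills 90.8% and 87.6% in d3F, and the 2 genes hold between 43.4% and 48.7% each in d5FS. Foxa2 was a sorting marker.

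The transcription factors that work with Foxa proteins in endoderm rose over the course as well. Of 11 tested, 4 were higher and 1 was lower in d3F than in d0, 2 were higher and none was lower in d5FS than in d3F (0 lower also at an unadjusted p under 0.05 and by DESeq2), and 7 were higher and 1 was lower in d5FS than in d0. The median log2 changes were 2.99, 1.84 and 3.93, and the shares over all genes are those given above. Hnf4a, a central regulator of liver and gut genes, had 0.0905 and 0.18 CPM in d0, 0.264 and 2.08 in d3F, with 41.7 and 60.4 in d5FS, and it rose by 5.40 ± 0.84 from d3F to d5FS on the log2 scale (edgeR adjusted p = 0.0263). Like Foxa3, it was high in d5FS only. Gata6, an early endoderm factor, rose by 5.41 ± 0.47 from d0 to d3F (edgeR adjusted p = 0.00269). Nr5a2, which also sustains pluripotency genes, fell by 4.31 on the log2 scale (SE 0.66, edgeR adjusted p = 0.00481) from d0 to d5FS. Sox17, which was called higher, was a sorting marker. Markers of extraembryonic endoderm, a tissue that also expresses Foxa genes, summed to 193 and 178 CPM in d0, 152 and 313 in d3F, then 710 and 668 in d5FS, and none of the 6 was at 0 counts throughout. From d0 to d5FS 3 of them (Ttr, Cubn and Sparc) rose, beside 12.4% of all genes. Ttr and Cubn reached the filter limit in both replicates only in d5FS, so a difference was built into their being tested. The part of the extraembryonic markers in the Foxa levels was not tested.

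Foxh1 (chr15:76668225-76669948), the most abundant member per length, showed no change that passed in any comparison. Its CPM values were 80.6 and 26.8 in d0, 77.8 and 93.4 in d3F, with 56.0 and 81.2 in d5FS, and each pair of populations overlapped. The log2 differences were 0.64 ± 0.46 from d0 to d3F (edgeR adjusted p = 0.499), -0.34 ± 0.46 for the next step (0.744) and 0.30 ± 0.46 over the whole course (0.667). The d0 replicates differed by a ratio of 3.01, and without d0 replicate 2 the difference from d0 to d5FS was -0.22. These data do not show that its level was equal in the 3 populations.

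Genes of the Nodal signal that Foxh1 reads were tested as a list of 15. Of these, 5 were higher in d3F than in d0 (2.8% of all genes), 1 was higher and 2 were lower in d5FS than in d3F (1.08% and 0.461%), and 8 were higher and 1 was lower in d5FS than in d0 (12.4% and 10.4%). No gene was called lower from d0 to d3F, with 0 also at an unadjusted p under 0.05 and by DESeq2. Lhx1, a homeobox factor of the anterior mesendoderm, had 0.271 and 0.27 CPM in d0, 33.6 and 41.7 in d3F, then 70.8 and 63.2 in d5FS, and its log2 change from d0 to d3F was 7.01 ± 0.43 (edgeR adjusted p = 0.00178). Cer1, a secreted Nodal antagonist, rose by 8.56 ± 0.56 from d0 to d5FS (edgeR adjusted p = 0.000724). Tdgf1, the Nodal co-receptor, had 370 and 306 CPM in d0, 535 and 183 in d3F, with 71.2 and 32.8 in d5FS, and it fell by 2.79 on the log2 scale (SE 0.52, edgeR adjusted p = 0.0453) from d3F to d5FS. The ligand Nodal itself had between 68.5 and 110 CPM in the 6 samples and was not called from d0 to d5FS.

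Foxj1 (chr11:116330704-116335399) was highest in d3F. It had 6.15 and 2.38 CPM in d0, 90.9 and 27.3 in d3F, then 17.0 and 11.8 in d5FS. Both d3F samples lay above all others and the d5FS samples lay above those of d0. The log2 rise from d0 to d3F was 3.69 ± 0.61 (edgeR adjusted p = 0.0173), and without d0 replicate 2 it was 3.25 with an adjusted p of 0.0601. The later difference of -2.02 ± 0.57 from d3F to d5FS did not pass (edgeR adjusted p = 0.119), nor did that of 1.67 ± 0.57 from d0 to d5FS (0.0671). With the replicate block both were called (edgeR adjusted p = 0.0271 and 0.00828), so these outcomes depend on the model.

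Markers of the node and the axial mesoderm, whose cells carry motile cilia in the embryo, moved in the same samples as Foxj1. All 5 (T, Noto, Chrd, Shh and Nog) were called higher from d0 to d3F, beside 2.8% of all genes. From d3F to d5FS 3 were lower and none was higher (0 also at an unadjusted p under 0.05 and by DESeq2), beside 0.461% and 1.08% of all genes. Their summed CPM was 22.5 and 6.2 in d0, 258 and 106 in d3F, with 29.5 and 13.3 in d5FS, and replicate 1 was the higher one in each population, as for Foxj1. Noto stands in both this list and that of the cilium program, none of the 5 was at 0 counts throughout, and their part in the level of Foxj1 was not tested. Among genes of the motile cilium program, 2 of 15 tested were higher from d0 to d3F (2.8% of all genes), Noto and Dnah11, a dynein of nodal cilia. In d5FS Ccno and Noto were lower than in d3F (0.461%) and 0 were higher (1.08%, and 0 also at an unadjusted p under 0.05 and by DESeq2). From d0 to d5FS 3 were lower (10.4%). The 0 called higher (12.4%) stood beside 2 at an unadjusted p under 0.05, 2 by DESeq2 and 0 by its test against 1. Noto had 0.0905 and 0.135 CPM in d0, 6.76 and 3.48 in d3F, then 0.0608 and 0.228 in d5FS, and it rose by 5.31 ± 0.78 and then fell by 5.06 on the log2 scale (SE 0.78, edgeR adjusted p = 0.0137 and 0.0259). It passed the filter (0.468 CPM) through d3F alone, so a difference was built into its being tested. The calls of Noto do not add to the counts of either list as a result. Ccno, which acts in cells with many cilia, had 5.88 and 8.27 CPM in d0 and by d5FS its log2 value fell by 5.42 (SE 0.65, edgeR adjusted p = 0.00263). Markers of multiciliated epithelium summed to 6.7 and 11.0 CPM in d0, 15.8 and 7.79 in d3F, with 0.486 and 0.797 in d5FS, and all 4 that are in the files also belong to the cilium list.

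Foxq1 (chr13:31556134-31560976), a single-exon gene known from the satin coat of mutant mice and from mucin secretion in the stomach, had the largest change after Foxa2. It had 0.362 and 0.719 CPM in d0, 39.7 and 83.7 in d3F, then 61.2 and 103 in d5FS. Both later populations lay far above d0 and overlapped each other. Foxq1 rose by 6.74 ± 0.68 (log2) between d0 and d3F (edgeR adjusted p = 0.00487) and by 7.11 ± 0.68 from d0 to d5FS (edgeR adjusted p = 0.00154), and both calls were kept without each sample in turn. The log2 difference between d3F and d5FS was 0.38 ± 0.50 (edgeR adjusted p = 0.739). Unlike Foxa2, it was not used for sorting.

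Foxq1 lies in a cluster with Foxf2, 64.8 kb further on the same strand of chromosome 13, and Foxc1, another 175.2 kb on. Foxf2 (chr13:31625816-31631403), a factor of gut and craniofacial mesenchyme, had 0 and 1 counts in d0, 21 and 92 in d3F, with 5 and 11 in d5FS, or 0.922 and 4.45 CPM in d3F. Both d3F samples lay above all others. Foxf2 reached the filter limit (0.468 CPM) in both replicates only in d3F, so a difference was built into its being tested. The ratio of CPM between d3F and d0 was 115 with a 95% counting interval from 20.3 to 4600, and the fitted log2 change was 6.51 ± 1.33 (edgeR adjusted p = 0.0336). This call was kept only in the fit without d3F replicate 1. Without d0 replicate 1 or 2, d3F replicate 2, or d5FS replicate 1 or 2 its edgeR adjusted p was 0.0751, 0.0839, 0.24, 0.0578 and 0.0607. Foxc1 (chr13:31806633-31812476), a mesoderm factor, had 0.814 and 0.449 CPM in d0, 1.05 and 1.02 in d3F, then 1.76 and 1.03 in d5FS, and was called in no comparison. The 3 neighbours thus differed in size and course. A second cluster, Foxf1, Foxc2 and Foxl1 on chromosome 8, stayed at or under 0.57 CPM in every sample.

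Markers of other mesoderm rose with Foxf2 in part. Of 6 tested, 2 were higher from d0 to d3F, Pdgfra and Mesp1, beside 2.8% of all genes. Mesp1 passed the filter (0.468 CPM) through d3F alone, so a difference was built into its being tested. The summed CPM of the 6 markers was 3.35 and 2.83 in d0, 31.0 and 57.8 in d3F, with 32.4 and 11.6 in d5FS. Like Foxf2, this sum was higher in replicate 2 of d3F, but in d5FS it was higher in replicate 1 and Foxf2 in replicate 2. Fibroblast markers, which feeder cells would carry, summed to 9.95 and 12.8 CPM in d0, 34.3 and 73.7 in d3F, then 248 and 194 in d5FS, and 4 of 6 tested were higher in d5FS than in d0 (12.4% of all genes). Their part in the forkhead values was not tested.

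**Figure D5:**
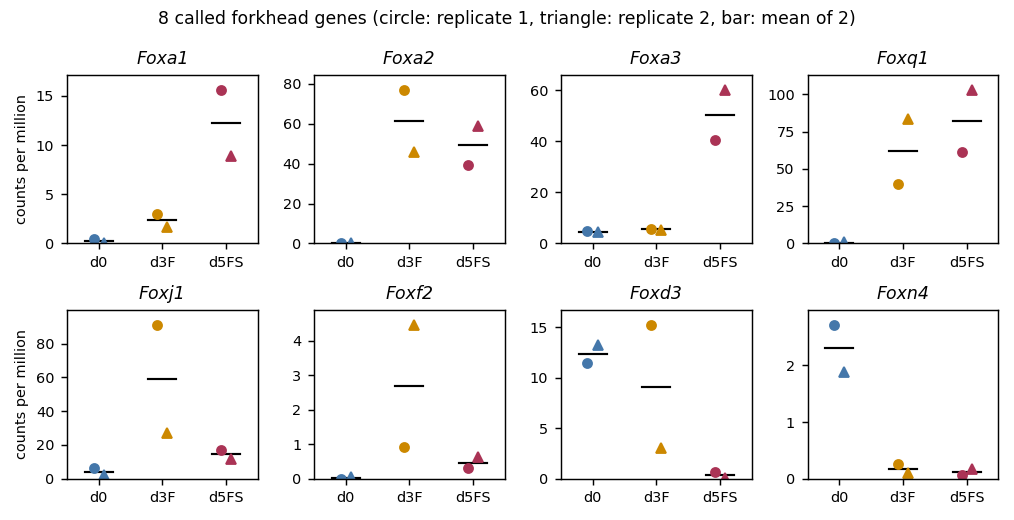
CPM of 8 called forkhead genes in d0, d3F and d5FS, with circles for replicate 1, triangles for replicate 2 and a bar at the mean of 2 replicates, each panel with its own axis from 0. Foxa3 is high in d5FS only, Foxj1 and Foxf2 are highest in d3F, Foxa2 and Foxq1 are high in both, and Foxd3 and Foxn4 are lowest in d5FS by mean.

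Among the members that fell, Foxd3 (chr4:99656299-99658622), needed in ESCs and later in the neural crest, showed the largest change. It had 11.5 and 13.2 CPM in d0, 15.2 and 3.05 in d3F, with 0.668 and 0.114 in d5FS. Both d5FS samples lay below all others, whereas the d3F samples lay on either side of d0. Foxd3 fell by 5.12 on the log2 scale (SE 0.92, edgeR adjusted p = 0.00826) from d0 to d5FS, a call kept without each sample in turn. The step from d3F to d5FS, with a log2 difference of -4.53 ± 0.91, did not pass (edgeR adjusted p = 0.0543) but was called with the replicate block (0.0304). The 2 d3F replicates differed by a ratio of 5.0, and the later step passed without d0 replicate 1 (edgeR adjusted p = 0.0318), d0 replicate 2 (0.0341) or d3F replicate 2 (0.0296, log2 -5.23) but not without d3F replicate 1 (0.274, log2 -3.10), d5FS replicate 1 (0.159) or d5FS replicate 2 (0.201). Markers of the neural crest summed to between 0.995 and 3.13 CPM in the 6 samples.

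Foxi3 (chr6:70956531-70961066), an ectodermal factor of teeth, hair and ear, had 8.10 and 1.84 CPM in d0, 4.61 and 0.871 in d3F, then 0.425 and 0.228 in d5FS. It fell by 3.97 on the log2 scale (SE 1.00, edgeR adjusted p = 0.0255) from d0 to d5FS. The d0 and d3F samples overlapped, with replicate 1 the higher one in both. Foxr2 (chrX:153118786-153132861), known as an oncogene of brain tumours, had 3.94 and 1.75 CPM in d0, 2.94 and 0.822 in d3F, with 0.365 and 0.570 in d5FS, and fell by 2.66 (SE 0.76, edgeR adjusted p = 0.0385). Both calls were lost without d0 replicate 1 (edgeR adjusted p = 0.0778 for Foxi3 and 0.11 for Foxr2), without d5FS replicate 1 (0.114 and 0.199) and without d5FS replicate 2 (0.123 and 0.11).

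Foxn4 (chr5:114254164-114273807), which in the embryo directs interneurons of the retina and spinal cord, was present mainly in d0. It had 2.71 and 1.89 CPM in d0, 0.264 and 0.0967 in d3F, then 0.0608 and 0.171 in d5FS, and both d0 samples lay above all others. It was the only member that was called lower from d0 to d3F, where its log2 value fell by 3.72 (SE 0.74, edgeR adjusted p = 0.0305), and it fell by 4.32 (SE 0.80, edgeR adjusted p = 0.00912) from d0 to d5FS. The first call was lost in each of the 6 fits that left out a sample, with edgeR adjusted p between 0.0565 and 0.283, and the second was lost without d5FS replicate 1 (0.0808). Foxn4 passed the filter through its d0 values alone, so a difference was built into its being tested.

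Of the Foxp factors, repressors that act in lung, brain and lymphocytes, 2 rose. Foxp4 (chr17:47867133-47924645), expressed in foregut and lung epithelium, had 15.8 and 12.2 CPM in d0, 28.0 and 20.9 in d3F, with 43.6 and 66.7 in d5FS. Each population lay above the one before it without overlap. It rose by 1.88 ± 0.35 on the log2 scale (edgeR adjusted p = 0.00905) from d0 to d5FS, a call kept without each sample in turn, whereas neither single step passed. Foxp2 (chr6:14901349-15441977), known for its role in speech circuits, had 0.0905 and 0.0899 CPM in d0, 0.747 and 0.580 in d3F, then 0.547 and 0.627 in d5FS. Its log2 change of 2.51 ± 0.77 from d0 to d5FS (edgeR adjusted p = 0.0477) rests on 4 counts in d0 and 20 in d5FS, a ratio of CPM of 6.52 with a 95% counting interval from 2.18 to 26.2, and was lost in each of the 6 fits that left out a sample (edgeR adjusted p from 0.131 to 0.173).

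Foxp1, of which ESCs make a splice form of their own that counts per gene cannot resolve, had 39.7 and 15.0 CPM in d0, 25.2 and 6.77 in d3F, with 10.5 and 7.01 in d5FS. Both d5FS samples lay below both d0 samples, and the log2 difference of -1.72 ± 0.61 from d0 to d5FS did not pass (edgeR adjusted p = 0.0726). It was called with the replicate block (edgeR adjusted p = 0.0127). Foxp3, the factor of regulatory T cells, had 0.332 to 0.886 CPM, and its exons overlap those of Ppp1r3f and Ccdc22 on the opposite strand, so its reads cannot be assigned with certainty.

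None of the Foxo factors was called by edgeR without the replicate block, which called Foxo1 lower from d3F to d5FS (edgeR adjusted p = 0.0451). Foxo4 and Foxo3 were among the 8 most abundant members per length in each sample. Foxo4 (chrX:101254528-101260873) had 59.5 and 60.1 CPM in d0, 102 and 85.7 in d3F, then 53.3 and 49.3 in d5FS. Both d3F samples lay above all others and both d5FS samples below. Its log2 differences were 0.54 ± 0.27 (edgeR adjusted p = 0.304) from d0 to d3F, -0.89 ± 0.27 (0.139) for the next step and -0.35 ± 0.27 (0.373) over the whole course. Foxo3 ranged from 15.8 to 51.4 CPM with both d5FS samples highest (log2 0.88 ± 0.37 from d0, edgeR adjusted p = 0.119), Foxo1 from 6.32 to 30.3 and Foxo6 from 0.243 to 0.814.

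Genes known as Foxo targets gave 2 higher of 14 tested at the first step (2.8% of all genes), 0 in either direction at the second (1.54%), and 5 higher and 1 lower from d0 to d5FS (12.4% and 10.4%). The counts of 0 stood beside 2 lower from d0 to d3F, and 3 higher and 1 lower from d3F to d5FS, at an unadjusted p under 0.05 in edgeR. DESeq2 called 1 lower from d0 to d3F, and 1 higher and 0 lower from d3F to d5FS, and its test against 1 called 0 in each. Bcl6, a repressor of B cell differentiation, had 0.905 and 0.539 CPM in d0, 3.38 and 5.27 in d3F, with 11.7 and 17.3 in d5FS, and its log2 rise over the whole course was 4.23 ± 0.54 (edgeR adjusted p = 0.00302). The cell cycle inhibitors Cdkn1a and Cdkn1b were among the 5, while Sod2, a mitochondrial superoxide dismutase, fell by 1.71 (SE 0.34, edgeR adjusted p = 0.0113). Pik3ip1, an inhibitor of PI3 kinase, rose by 2.75 ± 0.55 from d0 to d3F (edgeR adjusted p = 0.0306).

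Foxm1 (chr6:128362967-128376146) had 42.1 and 17.3 CPM in d0, 39.3 and 24.1 in d3F, then 20.6 and 28.5 in d5FS. The populations overlapped in each comparison, with a log2 difference of -0.34 ± 0.42 from d0 to d5FS (edgeR adjusted p = 0.594). Of 12 mitotic genes driven by Foxm1, edgeR called 0 in either direction at both steps, d0 to d3F and d3F to d5FS (4.7% and 1.54% of all genes). At an unadjusted p under 0.05 there were 0 and 1 (lower), and DESeq2 called 0 in both. From d0 to d5FS 1 was lower and none was higher (0 also at an unadjusted p under 0.05 and by DESeq2), beside 10.4% and 12.4% of all genes. A count of 1 in 12 does not exceed the share of all genes called lower. At an unadjusted p under 0.05, 4 were lower. DESeq2 called 2 lower, beside 27.6% of all genes in either direction, and its test against 1 called 0. The gene called lower by edgeR was Skp2, a subunit of a ubiquitin ligase, which had 52.2 and 52.7 CPM in d0 and 21.2 and 29.8 in d5FS and fell by 1.15 on the log2 scale (SE 0.32, edgeR adjusted p = 0.0338). The median log2 difference of the 12 genes from d0 to d5FS was -0.63.

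The Foxk factors, which repress autophagy genes, were widely present. Foxk1 had 20.9 and 16.3 CPM in d0, 24.6 and 28.5 in d3F, with 34.8 and 48.7 in d5FS. Each population lay above the one before, and the log2 difference of 1.07 ± 0.33 from d0 to d5FS just missed the threshold (edgeR adjusted p = 0.051). It was called with the replicate block (edgeR adjusted p = 0.0202). Foxk2 had 51.4 and 51.8 CPM in d0, 93.6 and 89.0 in d3F, then 66.8 and 65.2 in d5FS, with little spread within each population, and its log2 difference from d0 to d3F was 0.72 ± 0.27 (edgeR adjusted p = 0.171).

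The remaining tested members were called in no comparison by edgeR with the filter. Foxn2 ranged from 35.4 to 66.9 CPM with both d0 samples highest, Foxn3, a checkpoint factor, from 10.8 to 20.3, Foxj3 from 20.3 to 35.2 and Foxj2 from 5.30 to 14.5. Foxj2 shares exon sequence with Mir7231 on the same strand. Foxb1, a factor of the hypothalamus, had 2.81 and 0.774 CPM in d3F and at most 0.228 in the other samples, with a log2 difference of 3.76 ± 0.94 from d0 to d3F (edgeR adjusted p = 0.0597, called by DESeq2), and its exons overlap B230323A14Rik on the opposite strand. Foxd1, a factor of kidney stroma, had 0.571 and 0.725 CPM in d3F and at most 0.285 elsewhere. Both Foxb1 and Foxd1 passed the filter through d3F alone, so a difference was built into their being tested. Of the members not tested, Foxr1 reached 1.17 CPM in d0 replicate 2, Foxe1, a thyroid factor, 0.588 in d0 replicate 1, and Foxc2 and Foxf1 0.57 in d5FS replicate 2. The other 11 stayed at or under 0.486 CPM in every sample.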

How the data were processed

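RNA-seq of d0, d3F and d5FS cells, sorted from 1 DKI ESC line with 2 replicates each, was analysed, and groups were taken from the sorting markers and time points of the labels. According to the methods and the labels, ribosomal RNA was depleted, and the processing notes name STAR, RSEM and the mouse build GRCm38/mm10. Versions of STAR and RSEM and the annotation release are not given in the sources used here. The expected counts deposited by the authors are fragment numbers as RSEM estimates them, without normalization. The TPM values deposited by the authors are divided by effective length and scaled to the same total in each sample.

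Expected counts were rounded to whole numbers and tested with edgeR 4.0.16 in R 4.3.3 (filterByExpr, TMM, glmQLFit, glmQLFTest, a mean per population over all 6 samples, 3 residual degrees of freedom, prior count 0.125 for fold changes) on 14539 genes. TMM factors ranged from 0.87717 to 1.0822. A call needed an adjusted p (Benjamini-Hochberg) under 0.05 together with a log2 fold change beyond 1 in either direction. The standard error is the size of the log2 fold change over the root of the F statistic. An exact permutation test of 2 against 2 samples cannot go below p = 0.33 and was not run. CPM values use the total of each sample, without TMM factors. Counting intervals are exact 95% binomial intervals of the ratio of counts.

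Alternatives for the normalization and test were the size factors of DESeq2 1.42.0 and its Wald test, either with these cut-offs or against a change of 1. Genes were also fitted unfiltered, with a minimum of 10 counts in every sample, with the replicate block, with only 4 samples of the groups compared, and with each sample left out, where a lone sample is assumed to vary like the other groups. CPM per kilobase, scaled by TMM, were chosen after seeing the data. The pipeline was tested on simulated data. Positions are those of GENCODE M21 on GRCm38. The members, gene lists and marker lists were chosen with earlier results of these data known. Named with the value in every sample were members called in any comparison, Foxa1, Foxa2, Foxa3, Foxj1 and Foxh1, members whose mean reached 10 TPM in a population, and in each other list the called gene with the largest change in each direction. Foxb1, Foxc1, Foxd1, Foxk1, Foxk2, Foxm1, Foxp1 and other genes given with values were chosen after their values were seen. The values of 1 untested member are not reported here. Of the lists, Pkd1l1 and Deup1 were not analysed here.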

Additional observations from a re-analysis of the deposited data

How the results depend on the processing

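The 6 forkhead genes called from d0 to d3F remained 6 or became 4 to 7 under most alternatives with both replicates. The share of all genes called was 2.64% to 10.4% there, beside 4.7% as reported. Only 1 was left with at least 10 counts in every sample (2.95% of all genes), since 5 were then not tested. Each fit without 1 sample called fewer members, and the share of all genes called changed as well. From d3F to d5FS the count of 1 was the least stable: DESeq2 called 6, its test against a log2 fold change of 1 called 2, no filter on low counts gave 7 and a fit of only the groups compared gave 3, beside 7.59%, 1.26%, 6.66% and 3.83% of all genes (1.54% in edgeR as reported), and without 1 sample in turn there were 0 to 3. From d0 to d5FS the count of 10 fell to 2 with at least 10 counts in every sample, since 8 were then not tested, and lay between 6 and 11 without 1 sample in turn. The cause of the other changes was not tested.

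The replicate numbers are shared by the 3 populations, but the labels state no shared batch, and what the numbers mark is not known. Differences between replicates 1 and 2 correlated across genes with r = 0.314 between d0 and d3F, 0.324 between d0 and d5FS and 0.278 between d3F and d5FS. With the replicate block, 6 forkhead genes were called from d3F to d5FS, Foxa3 with Foxa1, Foxd3, Foxi3, Foxj1 and Foxo1, and 14 from d0 to d5FS, where Foxf2, Foxj1, Foxk1 and Foxp1 were added to the 10, beside 6.31% and 29.5% of all genes. From d0 to d3F the same 6 genes were called, beside 9.08% of all genes.

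Signs turned only for differences that were not called. Without 1 sample in turn, Foxd3 from d0 to d3F ranged from -2.03 to 0.12 on the log2 scale (the latter without d3F replicate 2) and Foxi3 from -2.44 to 0.31 (without d0 replicate 1). Foxh1 from d0 to d5FS ranged from -0.22 (without d0 replicate 2) to 1.12 and was -0.05 without d5FS replicate 2. From d3F to d5FS Foxn4 ranged from -1.54 to 0.15 (without d3F replicate 1), and Foxq1 from -0.13 (without d3F replicate 1) to 1.13, with -0.12 without d5FS replicate 2. Of the values of single genes under all alternatives, 437 kept direction and call, 43 lost a call and 30 gained one.

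Summed forkhead levels depend on the unit. In TPM the means were 80.4, 147 and 92.1 in d0, d3F and d5FS, in CPM 440, 724 and 688, and in CPM per kilobase 157, 271 and 251. The TPM mean of d0 rests on 122 and 39.0 in its replicates, on either side of the 98.4 and 85.8 of d5FS, so no order of d0 and d5FS can be read from it. The Foxa share, which includes the sorting marker Foxa2, was 1.16%, 9.43% and 16.2% in CPM. With at least 10 counts in both replicates, 22, 27 and 19 members were detected in d0, d3F and d5FS, and with at least 1 CPM per kilobase 17, 18 and 18, beside 10, 14 and 14 at 1 TPM. Members under 10 counts were removed by the filter and entered only the unfiltered fit, where few counts limit precision.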
